A study of Mus musculus with 6 samples.

Results

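The 37 genes described here encode the machinery of DNA replication and the regulators of entry into S phase. They were taken by symbol from a table of 25664 genes, which held a row for each of the 37. The table came from RNA sequencing of mouse alveolar macrophages, phagocytes that live on the inner surface of the air sacs and were collected by washing the lungs and sorting. 3 libraries had the genotype Vav1cre/+ Pex5fl/fl and are called Pex5-deficient. The other 3 had the genotype Pex5fl/fl and are called control, so both groups carried the floxed Pex5 alleles. Vav1-Cre is active throughout blood-forming cells and their descendants, so its recombination is not limited to macrophages. Age and sex of the mice were not stated. PEX5 is the receptor that carries most matrix enzymes into peroxisomes, and the study asked what these organelles do for the metabolism and survival of the cells.

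Replication starts when origins are licensed in G1: the loaders CDC6 and CDT1 place the MCM2-7 ring on DNA as an inactive helicase. Cyclin E with its kinase, acting in a programme of transcription driven by E2F factors, then helps to start S phase, CDC45 and the GINS complex switch the helicase on, and polymerases copy both strands behind it. Alveolar macrophages are long-lived and are maintained in the adult lung largely by their own slow division, so a small share of such cells is in cycle at any time.

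Total counts ranged from 13325609 to 19413838 in Pex5-deficient and from 14226108 to 18987200 in control libraries. The 37 genes took between 0.0884% and 0.148% of counts in Pex5-deficient libraries and between 0.11% and 0.123% in control libraries. Counts of Pex5 were not lower in the libraries labelled Pex5-deficient, with 31.4, 36.3 and 29.6 CPM (counts divided by the scaled library size, on the usual common scale) against 33.01, 32.1 and 29.7 CPM in control (log2 fold change 0.04 ± 0.11, SE). Which exons the recombinase removes is not known here, so a count over the whole gene does not check the label. Pex5-deficient replicate 2 stood apart with a scaling factor of 1.34, against 0.899 to 1.03 in the other 5 libraries. All 12 alveolar macrophage markers looked at were detected in every library, led by Chil3, while 3 of them, Siglecf, Ear1 and Krt79, were called lower in Pex5-deficient cells. The granule and surface genes S100a9, Ly6g, Mpo, Elane, Camp, Ngp and Retnlg of neutrophils were at 0 in all 6 libraries, although S100a8 and Cxcr2 were called higher. Of the other tested neutrophil genes, Mmp8, the most abundant, had a log2 fold change of 0.90 and Csf3r -0.52, neither called. The summed neutrophil list lay between 133 and 180 CPM in Pex5-deficient and between 77.7 and 102 CPM in control libraries, on the unscaled CPM scale. The summed monocyte list lay between 5.25 and 9.61 CPM in Pex5-deficient and between 4.003 and 7.81 CPM in control libraries, and the erythroid list reached 7.02 CPM in Pex5-deficient replicate 2 and at most 0.209 CPM elsewhere. The part of these differences in the values below was not tested.

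None of the 37 replication and G1/S genes was called changed, and their transcripts were detected in all 6 libraries. Mean levels over the 6 libraries ran from 2.82 CPM for E2f8 to 126 CPM for Pcna, and 20 of the 37 reached at least 20 CPM. With edgeR's quasi-likelihood test and Benjamini-Hochberg adjustment over 11011 genes, 0 of 37 passed a threshold of 0.05, where 3.25% of the genes tested did, 1.74% higher and 1.51% lower. Before adjustment 8 had a p under 0.05, each of them lower in Pex5-deficient cells: Mcm2, Mcm4, Mcm7, E2f1, E2f8, Pola1, Rrm2 and Uhrf1. These 8 are 21.6% of the list, beside 18.9% of all genes tested (9.17% lower and 9.7% higher). The smallest adjusted p of the list was 0.0899, for Uhrf1. DESeq2 called 1 of the 37, Uhrf1, with an adjusted p of 0.048, where it called 6.86% of all genes tested. It put 7 at an unadjusted p under 0.05, beside 17.3% of all genes. The limma-voom test called 0, beside 2.94% of all genes, and put 8 at an unadjusted p under 0.05, beside 18.8%.

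The estimates leaned to one side by a small amount. Of the 37 log2 fold changes (Pex5-deficient over control) 29 (78.4%) were below 0, against 50.1% of all genes tested, and their median was -0.16, beside -0.000767 for all genes. Scaled by library size alone, 16 of 37 were below 0 and the median was 0.01, beside a median of all genes that itself moved to 0.17. The difference of the list's median from that of all genes was -0.16 under either scaling. For 13 genes (35.1%) the groups did not overlap, 11 with Pex5-deficient lower and 2 with it higher, beside 26.1% of all genes, 13.1% lower and 13% higher. The 95% interval stayed within a 2-fold change in either direction for 35 of the 37 genes, the others being Ccne2 and E2f8, and within a 1.5-fold change for 19.

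**Figure D1:**
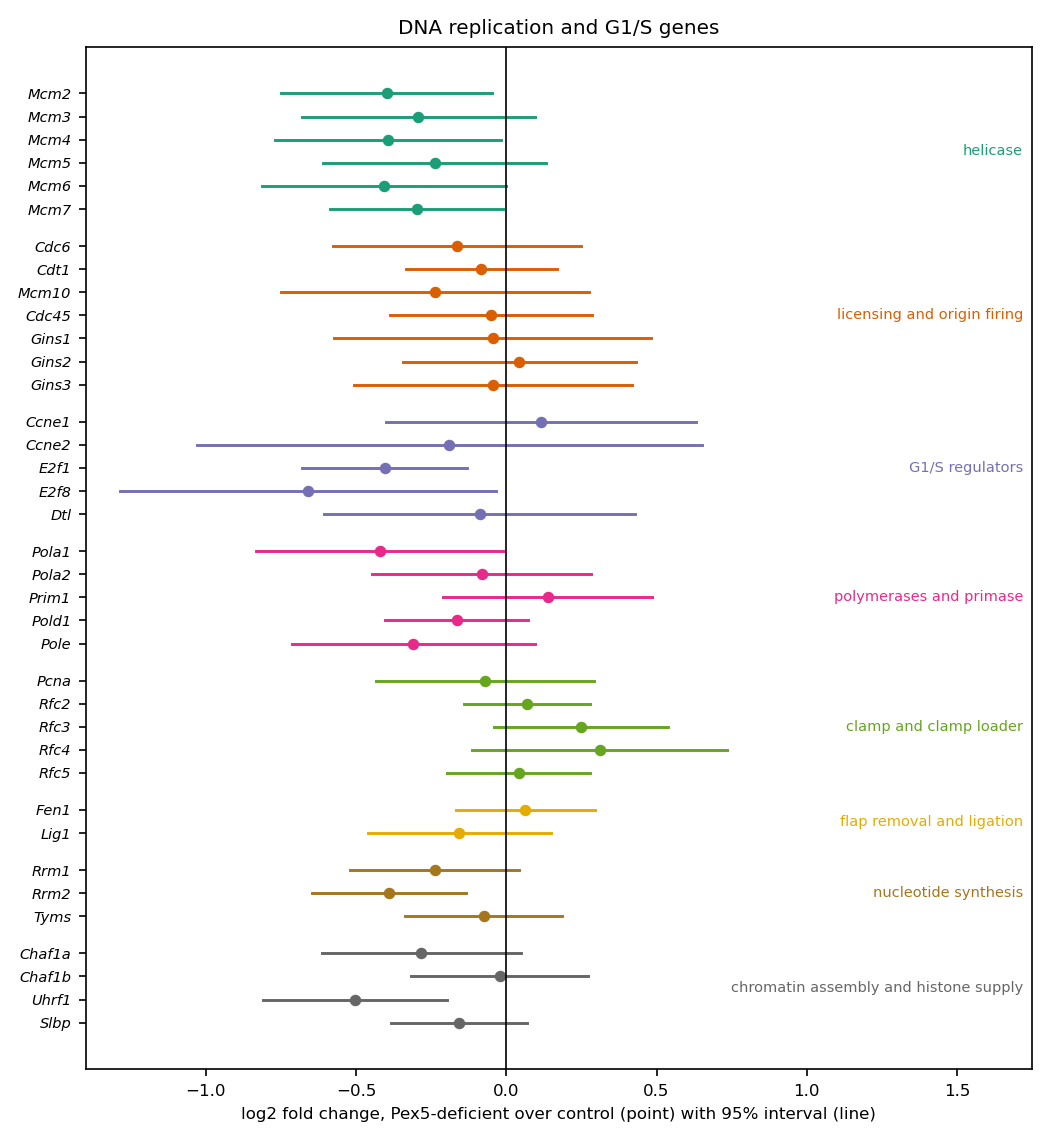
Log2 fold change (Pex5-deficient over control, points) with its 95% interval (lines) for each of the 37 genes, coloured and grouped by role. The 6 helicase subunits lie between -0.41 and -0.24, while 4 of the 5 clamp and clamp loader genes lie above 0, and 35 of the 37 intervals stay within -1 and 1.

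One library weighed on the list. Pex5-deficient replicate 1 held the lowest of the 6 values for 21 of the 37 genes and the highest for 0. Control replicate 1 held the highest value for 13 and control replicate 3 for 9. The summed level of the 37 genes was 922, 1105 and 1162 CPM in Pex5-deficient replicates 1 to 3, against 1288, 1196 and 1192 CPM in control replicates 1 to 3. All 3 Pex5-deficient sums lay below the 3 control sums, the closest pair being 1162 and 1192 CPM, and in unscaled CPM the sums overlapped, with 884, 1476 and 1059 in Pex5-deficient against 1157, 1099.7 and 1230 in control libraries. Without Pex5-deficient replicate 1 the median log2 fold change was -0.06 and 26 of 37 estimates were below 0. Without Pex5-deficient replicate 2 it was -0.18, with 25 below 0, and without Pex5-deficient replicate 3 it was -0.24, with 29 below 0. With any 1 library left out the median lay between -0.24 and -0.06. In RNA from a sorted population, fewer cycling cells and less of these transcripts per cycling cell cannot be told apart.

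**Figure D2:**
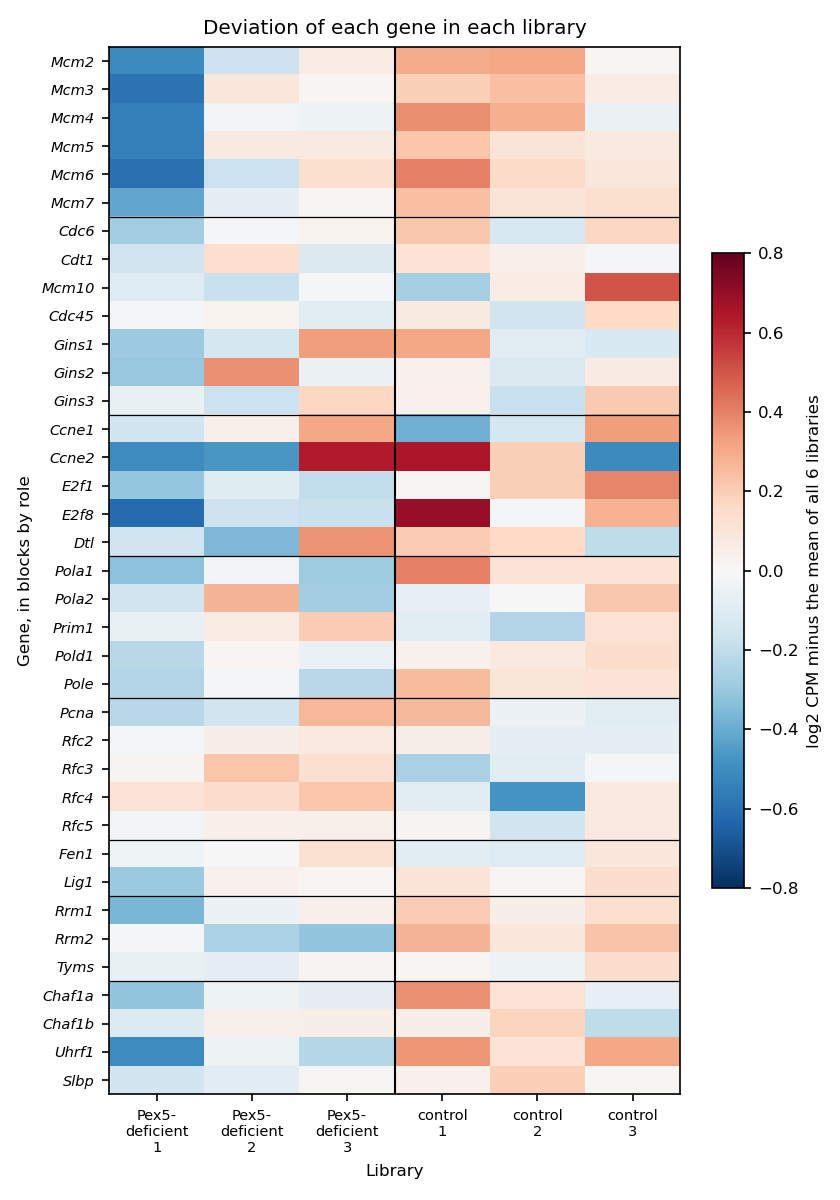
Each cell is the log2 CPM (prior count 2) of a gene in a library minus that gene's mean over the 6 libraries, with genes in rows in blocks by role, Pex5-deficient libraries on the left and control libraries on the right. Deviations run from -0.62 to 0.70, and the blue column of Pex5-deficient replicate 1 holds the lowest value of 21 genes, the 6 helicase subunits among them.

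The MCM2-7 helicase, the ring that unwinds DNA at the fork, had all 6 subunits below 0. Promoters of 5 subunits are shown because all 6 genes had their lowest value in the same library and because E2F factors, which activate S-phase genes, are known to read letters of the kind marked here. The windows hold 250 bases before and 50 bases after the start site (RefSeq, GRCm38.p6), at chr1:20820263-20820562 (minus strand) for Mcm3, chr8:75109259-75109558 (plus) for Mcm5, chr1:128359656-128359955 (minus) for Mcm6, chr5:138171834-138172133 (minus, the upstream one of 2 listed starts) for Mcm7 and chr6:88898731-88899030 (minus) for Mcm2. Capitals mark matches to TTTCGCGC, TTTGGCGC, TTTCCCGC or TTTGCCGC on either strand, with overlapping matches joined.
Mcm3: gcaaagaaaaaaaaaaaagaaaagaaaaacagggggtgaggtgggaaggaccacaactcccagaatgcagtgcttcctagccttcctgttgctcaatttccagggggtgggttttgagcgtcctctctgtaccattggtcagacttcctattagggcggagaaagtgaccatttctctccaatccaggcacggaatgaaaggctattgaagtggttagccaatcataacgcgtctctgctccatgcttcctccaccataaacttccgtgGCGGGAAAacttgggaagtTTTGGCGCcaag
Mcm5: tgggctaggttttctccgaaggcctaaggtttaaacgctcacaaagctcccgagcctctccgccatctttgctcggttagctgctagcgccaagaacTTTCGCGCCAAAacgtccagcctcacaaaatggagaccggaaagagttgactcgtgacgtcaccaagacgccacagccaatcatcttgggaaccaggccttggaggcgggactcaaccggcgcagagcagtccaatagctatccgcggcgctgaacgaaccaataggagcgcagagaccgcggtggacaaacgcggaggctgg
Mcm6: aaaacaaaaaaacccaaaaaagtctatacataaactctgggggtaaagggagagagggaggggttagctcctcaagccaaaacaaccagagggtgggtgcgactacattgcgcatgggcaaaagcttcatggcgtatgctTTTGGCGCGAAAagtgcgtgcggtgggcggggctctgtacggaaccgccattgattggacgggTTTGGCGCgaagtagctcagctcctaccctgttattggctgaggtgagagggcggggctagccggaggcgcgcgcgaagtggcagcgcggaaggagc
Mcm7: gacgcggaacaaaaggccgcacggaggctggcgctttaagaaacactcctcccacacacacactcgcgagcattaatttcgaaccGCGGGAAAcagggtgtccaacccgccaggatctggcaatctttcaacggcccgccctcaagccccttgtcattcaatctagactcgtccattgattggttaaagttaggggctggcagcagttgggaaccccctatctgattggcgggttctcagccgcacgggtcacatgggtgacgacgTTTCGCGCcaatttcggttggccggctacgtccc
Mcm2: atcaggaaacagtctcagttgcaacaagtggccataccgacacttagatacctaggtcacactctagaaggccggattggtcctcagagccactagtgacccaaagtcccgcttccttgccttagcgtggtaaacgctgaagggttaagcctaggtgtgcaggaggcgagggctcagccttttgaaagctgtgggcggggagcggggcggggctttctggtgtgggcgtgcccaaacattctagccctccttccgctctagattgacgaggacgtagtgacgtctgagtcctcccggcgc

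The matches of Mcm5 began 153 bases before the start site and formed a single run of 12 bases with a match on each strand. Mcm6 had such a run 110 bases before its start and another match 47 bases before it, Mcm7 had matches 165 bases before and 16 bases after the start shown and 0 in the window of its other listed start, and both matches of Mcm3 lay after the start site. Mcm2 had 0 matches in its window, and its estimate, -0.40, was close to that of Mcm6, -0.41. Of the 31 listed genes with a window, 13 (41.9%) held such letters in at least 1 window, beside 4.9% of 8516 tested genes matched by symbol. The median log2 fold change was -0.17 for the 13 with a match (from -0.50 to 0.25) and -0.08 for the 18 without (from -0.66 to 0.31). It was -0.05 for the 417 tested genes with a match and 0.0004 for the 8099 without. These differences were not tested. The shorter letters CCAAT, bound by NF-Y, were in the windows of 19 of the 31 (61.3%) and of 43.3% of the tested genes. A match of letters is a description and does not show that a factor binds there.

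Mcm2 (chromosome 6, 88883474 to 88898780, GRCm38) had 40.8, 51.8 and 60.5 CPM in Pex5-deficient replicates 1 to 3, against 71.4, 72.1 and 58.7 CPM in control replicates 1 to 3. The groups met at Pex5-deficient replicate 3, which was above control replicate 3. This gave a difference of -0.40 ± 0.15 on the log2 scale (SE, adjusted p = 0.211). Mcm6 (chromosome 1, 128331590 to 128359664) had 50.6, 68.0 and 83.7 CPM in Pex5-deficient and 102, 85.2 and 81.6 CPM in control libraries, again with the third Pex5-deficient library among the controls. Its log2 fold change was -0.41 ± 0.18 (adjusted p = 0.265).

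Mcm7 (chromosome 5, 138164583 to 138172422) had 51.2, 64.9 and 69.0 CPM in Pex5-deficient libraries, against 80.4, 73.1 and 74.3 CPM in control libraries, with no overlap (-0.30 ± 0.13, adjusted p = 0.25). It shares 7.16% of its 100-base words with Gm5487 and overlaps exons of Cops6 and Ap4m1 on the other strand, and its value is uncertain to that extent. Mcm4 averaged 40.7 ± 7.91 CPM in Pex5-deficient and 53.7 ± 7.85 CPM in control cells (SD, n = 3 each). Mcm3 averaged 75.2 ± 17.9 CPM in Pex5-deficient and 92.3 ± 5.89 CPM in control cells, and Mcm5 46.0 ± 10.5 CPM in Pex5-deficient and 54.5 ± 2.98 CPM in control cells. In each of these 3 genes Pex5-deficient replicate 1 was the lowest library, and Pex5-deficient replicates 2 and 3 were near or within the control values.

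The 6 estimates lay between -0.41 and -0.24, and they were below 0 under each of the 13 alternative settings, library size scaling included, where they lay between -0.23 and -0.05. Their median was -0.35, and -0.21 without Pex5-deficient replicate 1, where Mcm5 was nearest to 0 at -0.06. The summed level of the subunits was 263, 370.1 and 394 CPM in Pex5-deficient libraries, against 465, 437 and 398 CPM in control libraries. Per kilobase of annotated exon, Mcm3 was the highest and Mcm2 the lowest in 6 of 6 libraries. Between them Mcm6 and Mcm7 changed places across libraries, as did Mcm4 and Mcm5. Mcm3 averaged 20.0 ± 4.77 CPM per kilobase in Pex5-deficient and 24.6 ± 1.57 in control cells, and Mcm2 7.34 ± 1.42 CPM per kilobase in Pex5-deficient and 9.69 ± 1.09 in control cells. Exons of every annotated isoform are counted in that length, so genes with long rare isoforms read low on this scale.

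**Figure D3:**
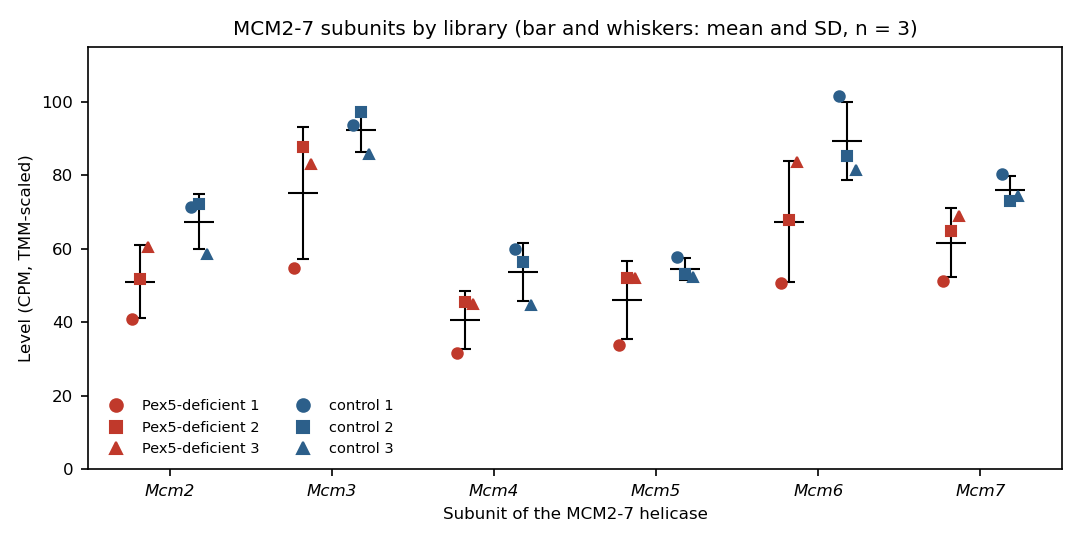
Level of the 6 MCM2-7 subunits in CPM after scaling, by library, with Pex5-deficient libraries in red to the left of control libraries in blue, marker shape giving the replicate, and bars and whiskers giving mean and SD (n = 3). Pex5-deficient replicate 1 is the lowest library for each of the 6 subunits. The groups do not overlap for Mcm7 and, narrowly (closest values 52.2 and 52.3 CPM), for Mcm5, where 13.1% of all genes tested were lower without overlap.

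The loaders and the factors that fire origins had estimates nearer to 0. Cdt1, which loads the MCM ring, averaged 35.1 ± 3.99 CPM in Pex5-deficient and 37.3 ± 1.62 CPM in control cells (log2 fold change -0.08 ± 0.11, adjusted p = 0.735). Its partner Cdc6 averaged 6.75 ± 0.774 CPM in Pex5-deficient and 7.62 ± 0.953 CPM in control cells. Cdc45, which joins the active helicase, had 10.4, 10.7 and 9.89 CPM in Pex5-deficient libraries, against 11.03, 9.39 and 11.7 CPM in control libraries. The groups overlapped for each of the 7 genes of this role, and 0 of them had an unadjusted p under 0.05. Mcm10, a scaffold of the firing helicase, had an estimate of -0.24 ± 0.23, in which control replicate 3 alone stood high at 8.64 CPM, and the estimate was 0.01 without that library. The GINS subunits Gins1, Gins2 and Gins3 had -0.05 ± 0.23, 0.04 ± 0.17 and -0.05 ± 0.20. Gins2 overlaps Gse1 on the opposite strand over 2758 bases of exon, and whether the authors counted by strand is not known. Exons of 13 of the 37 genes overlap exons on the opposite strand in the annotation, and counts of those genes are uncertain to that extent.

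Among the regulators of the G1/S step, both E2F factors in the list were lower in Pex5-deficient cells without overlap after TMM scaling. Of all genes tested, 13.1% were lower without overlap. With library size scaling the log2 fold change was -0.23 for E2f1 and -0.48 for E2f8. Outside the list, estimates were above 0 for E2f2 (0.18), E2f3 (0.05), E2f4 (0.24) and E2f6 (0.25). They were below 0 for E2f5 (-0.17) and E2f7 (-0.03), and none of these genes was called. E2f4 was higher in Pex5-deficient cells without overlap, as were 13% of all genes tested. E2f1, an activator (chromosome 2, 154559407 to 154569892), had 40.8, 47.4 and 44.1 CPM in Pex5-deficient replicates 1 to 3, against 51.2, 57.8 and 66.4 CPM in control replicates 1 to 3. The difference was not called over all genes (-0.41 ± 0.12, adjusted p = 0.114, and between 0.116 and 0.338 with any 1 library left out). E2f8, an atypical E2F that represses E2F target genes, had 1.721, 2.40 and 2.37 CPM in Pex5-deficient libraries, against 4.46, 2.69 and 3.31 CPM in control libraries (-0.66 ± 0.275, adjusted p = 0.242), and its lowest count was 22 reads, so counting error weighs more here than for the other listed genes.

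The cyclins E, partners of CDK2 at the start of S phase, varied between libraries more than between groups. Ccne2 had 7.12, 7.31 and 15.8 CPM in Pex5-deficient libraries, against 16.0, 11.6 and 7.09 CPM in control libraries. High and low libraries of Ccne2 were found in both groups, and its interval was the widest of the list, from -1.03 to 0.65. Ccne1 averaged 8.02 ± 1.33 CPM in Pex5-deficient and 7.42 ± 1.96 CPM in control cells. Dtl, the adaptor by which CDT1 is degraded during S phase, averaged 7.67 ± 2.07 CPM in Pex5-deficient and 8.15 ± 1.22 CPM in control cells.

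Of the 5 listed genes of the clamp and its loader, 4 had estimates above 0. With library size scaling it was 5 of 5, where the median of all genes itself moved to 0.17. Rfc1, a further loader subunit outside the list, had -0.14 ± 0.13 (adjusted p = 0.587), with overlap. Pcna, the sliding clamp that holds polymerases on DNA (chromosome 2, 132249162 to 132253314), had 107, 111 and 149 CPM in Pex5-deficient libraries, against 149, 120.2 and 117 CPM in control libraries. A high library stood in each group, and the log2 fold change was -0.07 ± 0.16. Pcna shares 17.8% of its words with other loci, Pcna-ps2 first among them, and is uncertain in part. Rfc3, a subunit of the clamp loader, had 15.6, 17.9 and 16.7 CPM in Pex5-deficient libraries, against 12.8, 14.4 and 15.1 CPM in control libraries, and was higher in each Pex5-deficient library than in any control library without being called (0.25 ± 0.13, adjusted p = 0.329). Rfc4, another loader subunit, did not overlap either (0.31 ± 0.19, adjusted p = 0.408), while Rfc2 and Rfc5 had 0.07 ± 0.09 and 0.04 ± 0.10.

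A ratio inside each library does not depend on how libraries are scaled. The summed level of Mcm2 to Mcm7 over that of Rfc2 to Rfc5 was 2.89, 3.84 and 4.08 in Pex5-deficient replicates 1 to 3, against 5.2, 5.29 and 4.39 in control replicates 1 to 3. The 3 Pex5-deficient ratios lay below the 3 control ratios, with means of 3.61 ± 0.627 in Pex5-deficient and 4.96 ± 0.497 in control libraries (SD, n = 3 each). The ratio was chosen after the values were seen and was given no test. Over Pcna in place of the loader the same sum gave 2.46, 3.32 and 2.63 in Pex5-deficient and 3.12, 3.64 and 3.4 in control libraries, with overlap.

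The replicative polymerases, which prime and copy the strands, had 3 of 5 genes without overlap, each lower in Pex5-deficient cells after TMM scaling, where 13.1% of all genes tested were lower without overlap, while the estimate of Pold1 was 0.01 with library size scaling. Pola1, the catalytic subunit of polymerase alpha, had 5.63, 7.02 and 5.82 CPM in Pex5-deficient libraries, against 9.47, 7.73 and 7.7 CPM in control libraries (-0.42 ± 0.18, adjusted p = 0.255). Pole and Pold1, catalytic subunits for the leading and the lagging strand, had -0.31 ± 0.18 and -0.17 ± 0.10. The partners of POLA1 differed less, with Pola2 at -0.08 ± 0.16 and the primase gene Prim1 at 0.14 ± 0.15. Fen1, which trims Okazaki fragments, and Lig1, which seals them, had 0.06 ± 0.10 and -0.16 ± 0.13. Most of the exon sequence of Fen1 lies opposite exons of other genes, over 1909 bases in its largest overlap, and its count cannot be assigned with certainty.

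Of the 3 listed genes that supply nucleotides, Rrm2 had the estimate farthest from 0. Rrm2, the subunit of ribonucleotide reductase whose level follows S phase (chromosome 12, 24708241 to 24714146), had 44.5, 37.7 and 36.1 CPM in Pex5-deficient replicates 1 to 3, against 54.4, 47.9 and 52.8 CPM in control replicates 1 to 3. Each Pex5-deficient library was below each control library, and Pex5-deficient replicate 1, the lowest library for most of the list, was here the highest of its group. The log2 fold change was -0.39 ± 0.11 (adjusted p = 0.104, and between 0.111 and 0.296 with any 1 library left out). Rrm1, the large subunit, averaged 61.1 ± 8.79 CPM in Pex5-deficient and 72.2 ± 3.96 CPM in control cells (-0.24 ± 0.12), and Tyms, which makes thymidylate, averaged 16.3 ± 0.613 CPM in Pex5-deficient and 17.2 ± 1.12 CPM in control cells.

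Of the genes that rebuild chromatin behind the fork, Uhrf1 had the smallest p of the list. Uhrf1, which reads hemimethylated DNA and recruits the maintenance methyltransferase (chromosome 17, 56303321 to 56323486), had 21.4, 29.5 and 25.9 CPM in Pex5-deficient libraries, against 38.7, 32.9 and 37.7 CPM in control libraries. The groups did not overlap after TMM scaling, and the log2 fold change was -0.50 ± 0.14 (adjusted p = 0.0899 with edgeR, between 0.0476 and 0.261 with any 1 library left out). With library size scaling the log2 fold change was -0.31 (adjusted p = 0.67 with edgeR). Uhrf1 passed the threshold without Pex5-deficient replicate 2 (-0.61, adjusted p = 0.0476) and with DESeq2 (-0.50), and did not pass under the other settings tried. It shares 7.05% of its words with Gm5648. The CAF-1 subunits Chaf1a and Chaf1b, which deposit histones on new DNA, had -0.28 ± 0.15 and -0.02 ± 0.13. Slbp, which binds and stabilises histone transcripts, averaged 38.4 ± 2.15 CPM in Pex5-deficient and 42.8 ± 3.06 CPM in control cells (-0.16 ± 0.10).

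Of 43 further genes of the replication machinery, 1 was called higher and 0 lower, with a median of -0.06, and 0.13 with library size scaling. The called one was Pole4, a histone-fold subunit of polymerase epsilon, with 33.3, 34.2 and 34.6 CPM in Pex5-deficient libraries, against 25.03, 24.4 and 25.9 CPM in control libraries. The groups did not overlap (0.44 ± 0.09, adjusted p = 0.0397), yet the call was lost with any 1 library left out, at adjusted p values between 0.0524 and 0.145, with log2 fold changes that stayed between 0.42 and 0.48. Rpa1, a subunit of the single-strand binding complex and the most abundant gene of that list, was lower in each Pex5-deficient library than in any control library without being called (-0.33 ± 0.10, adjusted p = 0.123).

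Of 28 tested G1 cyclins, kinases and E2F/RB factors, 0 were called higher and 1 lower. Cdk6, a kinase that phosphorylates RB in G1, had 103, 102 and 87.6 CPM in Pex5-deficient libraries, against 149, 133 and 134 CPM in control libraries (-0.51 ± 0.11, adjusted p = 0.0482). The call was lost with 5 of the 6 libraries left out in turn, with adjusted p values from 0.117 to 0.182, and held without Pex5-deficient replicate 2 (0.0465). The log2 fold change stayed between -0.55 and -0.43. Ccnd2, the D-type cyclin with the highest level of the list, had 358, 291 and 303 CPM in Pex5-deficient and 232, 356 and 197 CPM in control libraries, with overlap. Myc, a transcription factor that promotes cell growth, had 0.42 ± 0.13 (adjusted p = 0.126). Of the 5 tested CDK inhibitors 0 were called, and Cdkn1a, which encodes p21 and is also a target of p53, had 171, 139.7 and 137 CPM in Pex5-deficient libraries, against 105, 113 and 113 CPM in control libraries, without overlap (0.44 ± 0.12, adjusted p = 0.0914 with edgeR), and was called by DESeq2. Cdkn2b, another inhibitor, had 4.38, 1.51 and 1.02 CPM in Pex5-deficient libraries, against 0.860, 0.859 and 1.49 CPM in control libraries, with 1 high library (1.05 ± 0.56).

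Among 18 genes of mitosis, which mark cells in G2 and M, 0 were called higher and 1 lower, and 15 of 18 estimates were below 0 with a median of -0.26. With library size scaling 12 of 18 were below 0 and the median was -0.07. Bub1b, a kinase of the spindle checkpoint, had 40.5, 46.6 and 41.4 CPM in Pex5-deficient libraries, against 68.9, 64.0 and 68.3 CPM in control libraries (-0.65 ± 0.10, adjusted p = 0.0135). Its call was lost without Pex5-deficient replicate 1 (adjusted p = 0.0648), control replicate 1 (0.0678) or control replicate 3 (0.0578), while its log2 fold change stayed between -0.70 and -0.61 with any 1 library left out. Mki67, the textbook marker of cycling cells, had 14.2, 17.6 and 9.78 CPM in Pex5-deficient libraries, against 18.1, 20.0 and 17.8 CPM in control libraries, without being called (-0.42 ± 0.20). Top2a, which untangles DNA, had -0.50 ± 0.12 (adjusted p = 0.0654 with edgeR) and was called by DESeq2, while Cdk1, the mitotic kinase, had 0.05 ± 0.13. The calls of Pole4, Cdk6 and Bub1b were lost with library size scaling. Under it the log2 fold change of Pole4 was larger, at 0.61 (adjusted p = 0.22), while those of Cdk6 and Bub1b were nearer to 0, at -0.32 (adjusted p = 0.536) and -0.46 (adjusted p = 0.386).

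**Figure D4:**
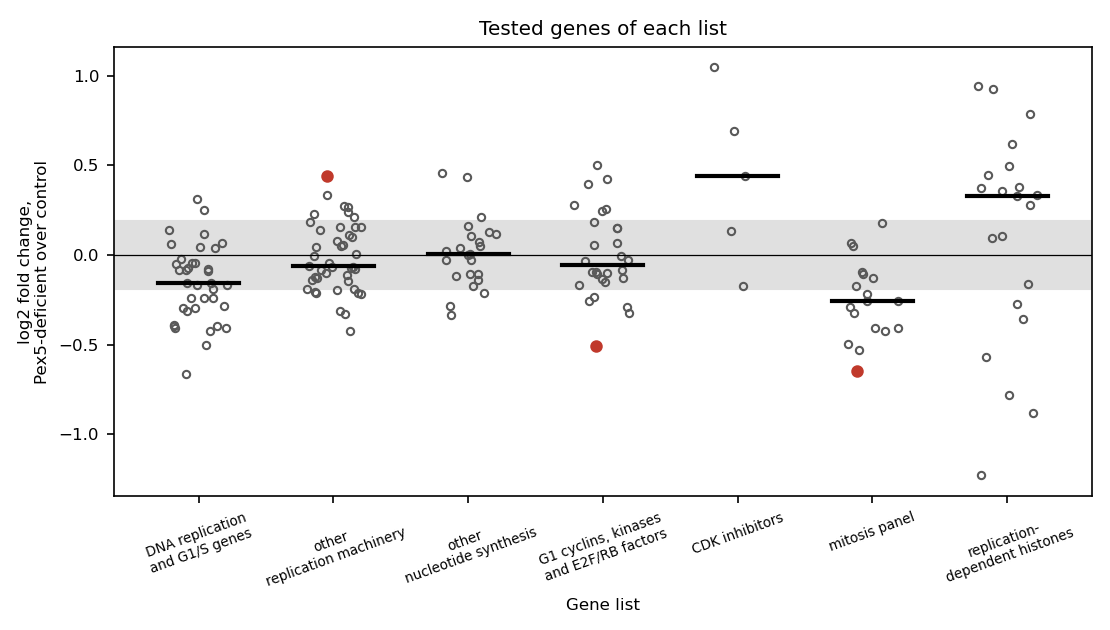
Log2 fold change (Pex5-deficient over control) of each tested gene in the 37-gene list and in 6 further lists, with called genes as filled red points, the list median as a black bar and the range between the quartiles of all tested genes, from -0.19 to 0.19, as a grey band. The medians run from -0.26 for mitosis to 0.44 for the 5 CDK inhibitors, and the filled points are Pole4, Cdk6 and Bub1b.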

How the data were processed

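Per the labels' protocols, total RNA of sorted lavage macrophages went into stranded SMART-Seq libraries. The authors deposited gene counts, whole numbers in 1 column per library. DESeq2 1.40.1, R 4.3.2, featureCounts and STAR, and the builds mm10 and GRCm38.p5, are named in the submitters' processing notes without roles. Neither the gene annotation nor whether counting used strand is stated.

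Genotype labels gave the groups. The labels do not say whether replicates are separate mice, and p-values therefore measure the spread between these samples, which may be technical. The filter filterByExpr of edgeR (at least 10 counts in enough libraries and 15 in all) kept 11011 genes, the 37 listed ones included. Libraries were scaled with TMM factors, and CPM values use the scaled sizes unless called unscaled. Groups were compared with edgeR 4.0.16 (glmQLFit and glmQLFTest, two-sided) in R 4.3.3, adjusted over all genes tested. Standard errors come from the F statistics. The steps were tested on simulated data. Alternatives were DESeq2 1.42.0, limma-voom (limma 3.58.1), other scaling, other filters, the replicate number as a block and each library left out. The members, lists and naming rule (every member, and of each further list the 2 genes of smallest p, the most abundant one, and Mki67, Top2a and Cdk1) were chosen with earlier results of these data known. Rfc1 and the E2F genes outside the list were named in addition, beside the listed genes of the same kind. Coordinates, exon lengths, overlaps and shared 100-base words come from GENCODE mouse release 21 on GRCm38, and promoters from RefSeq (GRCm38.p6), with 31 of 37 genes matched by symbol.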

Additional observations from a re-analysis of the deposited data

How the results depend on the processing

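The count of 0 listed genes called higher held under every alternative run, and that of genes called lower was 0 except for 1, Uhrf1, with DESeq2 and without Pex5-deficient replicate 2, so it ranged from 0 to 1 with a library left out. Genes called among all tested ranged from 76 (0.675%) to 523 (4.75%) with a library left out, and were 755 (6.86%) with DESeq2. Whether replicate numbers shared by the groups pair the samples is not known. Correlations of same-numbered deviations were -0.214, -0.0618 and -0.411, but deviations from means of 3 libraries cannot settle it. With the replicate number as a block 83 genes were called, 0 of them in the list and 0 in the further lists in either direction. Counts for the further lists under these alternatives leave out the histone genes. In those lists 2 genes were called higher and 3 lower with DESeq2, and 1 higher and 3 lower with no filter. At a mean of at least 5 CPM 1 was called higher and 1 lower, and with library size only 0 in either direction. With a library left out, 0 were called higher and 0 to 2 lower.

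With library size only, the median log2 fold change of the list was 0.0134, and these genes changed sign: Cdc6 (0.00627), Cdt1 (0.11), Cdc45 (0.12), Gins1 (0.11), Gins3 (0.10), Dtl (0.0528), Pola2 (0.12), Pold1 (0.0126), Pcna (0.0855), Lig1 (0.0201), Tyms (0.0854), Chaf1b (0.16) and Slbp (0.0134). None of these was called in any setting. That scaling moved the median of all genes by 0.17. With a library left out the sign was not fixed for Gins1 (-0.26 to 0.10), Gins2 (-0.15 to 0.18), Gins3 (-0.15 to 0.0777), Ccne1 (-0.0312 to 0.36), Ccne2 (-0.67 to 0.11), Dtl (-0.33 to 0.0805), Pcna (-0.24 to 0.0462), Chaf1b (-0.10 to 0.0656), Pola2 (-0.26 to 0.0265), Rfc5 (-0.0287 to 0.11), Mcm10 (-0.40 to 0.0110) and Cdc45 (-0.14 to 0.0409). The other listed genes kept their sign in every setting. The cause of these shifts was not tested. 10 of the 37 genes had a mean under 10 CPM, where counting error adds most to the spread.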

Other observations

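Genes that make nucleotide precursors outside the list showed 0 calls in either direction among 23 tested, with a median log2 fold change of 0.01, and 0.18 with library size scaling. Mthfd2, a mitochondrial enzyme of one-carbon metabolism that feeds purine and thymidylate synthesis, had 33.0, 24.2 and 29.0 CPM in Pex5-deficient libraries, against 20.3, 18.6 and 24.6 CPM in control libraries, with overlap (0.44 ± 0.15, adjusted p = 0.168 with edgeR). Cad, which begins pyrimidine synthesis, had 18.6, 19.2 and 16.5 CPM in Pex5-deficient libraries, against 23.1, 22.05 and 23.4 CPM in control libraries, without overlap (-0.33 ± 0.11, adjusted p = 0.148). Samhd1, which degrades deoxynucleotides in resting macrophages, was the most abundant gene of that list, at a mean of 104 CPM over the 6 libraries, and had -0.21 ± 0.11.

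Histone genes, whose S-phase transcripts mostly lack a poly(A) tail, were taken by symbol prefix, and 21 of 67 passed the filter on low counts. The test of edgeR called 0 of them. It put 4 at an unadjusted p under 0.05 (higher for 1, lower for 3), beside 18.9% of all genes tested. The median was 0.33, with estimates from -1.23 to 0.94, and 14 of the 21 estimates were above 0. The groups did not overlap for 5 genes, 2 with Pex5-deficient higher and 3 with it lower. Hist1h2bc, the most abundant at 99.5, 58.7 and 103 CPM in Pex5-deficient and 63.1, 92.5 and 52.3 CPM in control libraries, overlapped between the groups. The 2 histone genes of smallest p were both lower without overlap. Hist2h2ac, with 12 to 40 reads per library, had -1.23 ± 0.38 (adjusted p = 0.128) and Hist1h4d -0.36 ± 0.15 (adjusted p = 0.239). Copies of these genes are near-identical and their counts are uncertain.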
